A study of Homo sapiens with 4 samples.

Results

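The short arm of chromosome 9 carries CDKN2A, a tumor suppressor gene, and its map of H3K9me2 in K562 cells is described here from 4 lists of broad peaks. K562 is an established cell line from a human myeloid leukemia, and H3K9me2 is histone H3 dimethylated at lysine 9. The members were all listed peaks of chromosome 9 (build hg19) that end at or before position 47400000, 5696 of 1000000 listed peaks. By library they numbered 1906 in CUX1 knockout 1, 1363 in CUX1 knockout 2, 1304 in control 1 and 1123 in control 2. The bound fell in a gap without peaks. The last peak inside it ended between 44902618 and 44906944 in the 4 libraries, and the next peak on the chromosome started between 66329671 and 70989807.

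The 2 knockout libraries came from K562 cells given a CRISPR guide against CUX1, which encodes a homeodomain transcription factor. The 2 control libraries came from K562 cells given a guide against HPRT, and all 4 were made by CUT&RUN, in which an antibody directs a nuclease to the marked chromatin and the freed DNA is sequenced. The peak names carry the tag "cux1kd" in both knockout libraries and a "sub" number in control 1 only, which the labels do not explain, so "knockout" follows the labels. The labels do not say that the libraries came from separate cultures, nor whether a library is 1 clone, so every p-value measures the spread between these libraries, which may be technical. Each list held 250000 peaks, and their read depths were not stated.

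H3K9me2 is written mainly by the methyltransferases G9a and GLP and marks broad, mostly silent chromatin. CDKN2A encodes p16INK4a, which inhibits the cyclin D-dependent kinases, and p14ARF, which stabilises p53. Its neighbour CDKN2B encodes the related inhibitor p15INK4b. K562 is known as a line that lacks CDKN2A. Peak lists do not measure copy number, and lost DNA, unmappable DNA and DNA without the mark cannot be told apart in them. The stretch around CDKN2A is therefore called peak-poor here and not deleted.

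CDKN2A lay at 21967751 to 21995300 in hg19, and 0 listed peaks overlapped it in any of the 4 libraries. The other genes were not placed on the peak map, because no hg19 annotation was used. In the RefSeq annotation of GRCh38.p14, MTAP, an enzyme of methionine salvage, is the next coding gene toward the telomere. A cluster of 16 type I interferon genes, which encode secreted antiviral proteins, lies beyond it, with KLHL9 among them, and a further one, IFNK, lies on the other side of CDKN2A. CDKN2B, DMRTA1 and ELAVL2 follow in the other direction. The 250 bases before 4 transcription starts of this neighbourhood are shown, because they lie at CDKN2A and at genes near it in RefSeq order. They are RefSeq sequence of GRCh38.p14, read on the minus strand, with each CpG in capitals. The first CDKN2A start is known as that of p14ARF, at chr9:21995325-21995574, and the second as that of p16INK4a, at chr9:21974858-21975107. The CDKN2B promoter is at chr9:22009306-22009555 and that of IFNB1, the interferon beta gene, at chr9:21077943-21078192.
CDKN2A promoter 1: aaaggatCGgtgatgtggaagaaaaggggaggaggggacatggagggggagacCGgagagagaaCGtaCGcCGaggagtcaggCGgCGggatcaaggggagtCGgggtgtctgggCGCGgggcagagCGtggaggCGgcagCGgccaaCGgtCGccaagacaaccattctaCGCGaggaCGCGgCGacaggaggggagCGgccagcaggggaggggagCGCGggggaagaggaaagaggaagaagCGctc
CDKN2A promoter 2: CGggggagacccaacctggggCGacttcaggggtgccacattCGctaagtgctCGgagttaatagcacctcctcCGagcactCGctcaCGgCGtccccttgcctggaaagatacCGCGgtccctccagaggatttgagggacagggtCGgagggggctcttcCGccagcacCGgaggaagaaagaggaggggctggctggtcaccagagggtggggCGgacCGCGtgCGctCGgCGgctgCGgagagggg
CDKN2B promoter: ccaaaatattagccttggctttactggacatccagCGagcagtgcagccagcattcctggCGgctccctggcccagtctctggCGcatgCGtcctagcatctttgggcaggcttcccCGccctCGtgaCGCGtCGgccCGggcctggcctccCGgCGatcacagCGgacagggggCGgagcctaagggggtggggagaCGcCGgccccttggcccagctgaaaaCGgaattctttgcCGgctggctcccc
IFNB1 promoter: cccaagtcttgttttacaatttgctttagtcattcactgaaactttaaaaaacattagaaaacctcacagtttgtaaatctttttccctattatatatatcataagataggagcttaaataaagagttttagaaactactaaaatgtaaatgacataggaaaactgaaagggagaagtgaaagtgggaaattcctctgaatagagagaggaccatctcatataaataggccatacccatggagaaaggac

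The motif searched was CG, which reads the same on both strands. It occurred 24 and 20 times in the 2 CDKN2A promoters and 18 times in that of CDKN2B, against 0 times in that of IFNB1. Of 27305 genes, 23.3%, 32.1% and 36.5% had a promoter with at least as many as the first CDKN2A, second CDKN2A and CDKN2B promoters. These counts describe the letters only.

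The short arm was sparsely covered in every library. Peaks covered 5.53% and 5.06% of its 47.4 Mb in knockouts 1 and 2, against 6.31% and 4.50% in controls 1 and 2. The same lists covered 14.0% and 19.3% of chromosomes 1 to 22 and X in the knockouts, against 22.8% and 22.4% in the controls. The arm thus had 0.396 and 0.262 times the coverage of the whole list in the knockouts, against 0.276 and 0.201 times in the controls. The rest of chromosome 9 was denser, with 10.5% and 14.1% covered in the knockouts and 16.5% and 15.9% in the controls. The arm's mean coverage was 5.29% ± 0.332 in the knockouts and 5.41% ± 1.28 in the controls (SD, n = 2 each), and the ranges overlapped. The difference of -0.117 percentage points gave p = 1 in an exact permutation test (two-sided), and with 2 libraries in each group no p below 0.333 was possible. Its sign rested on single libraries, since it was 0.788 without control 1 and 0.118 without knockout 2. It also rested on how the lists were cut, since it was 2.31 once peaks of all lists were held to 1 limit on −log10 p.

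**Figure D1:**
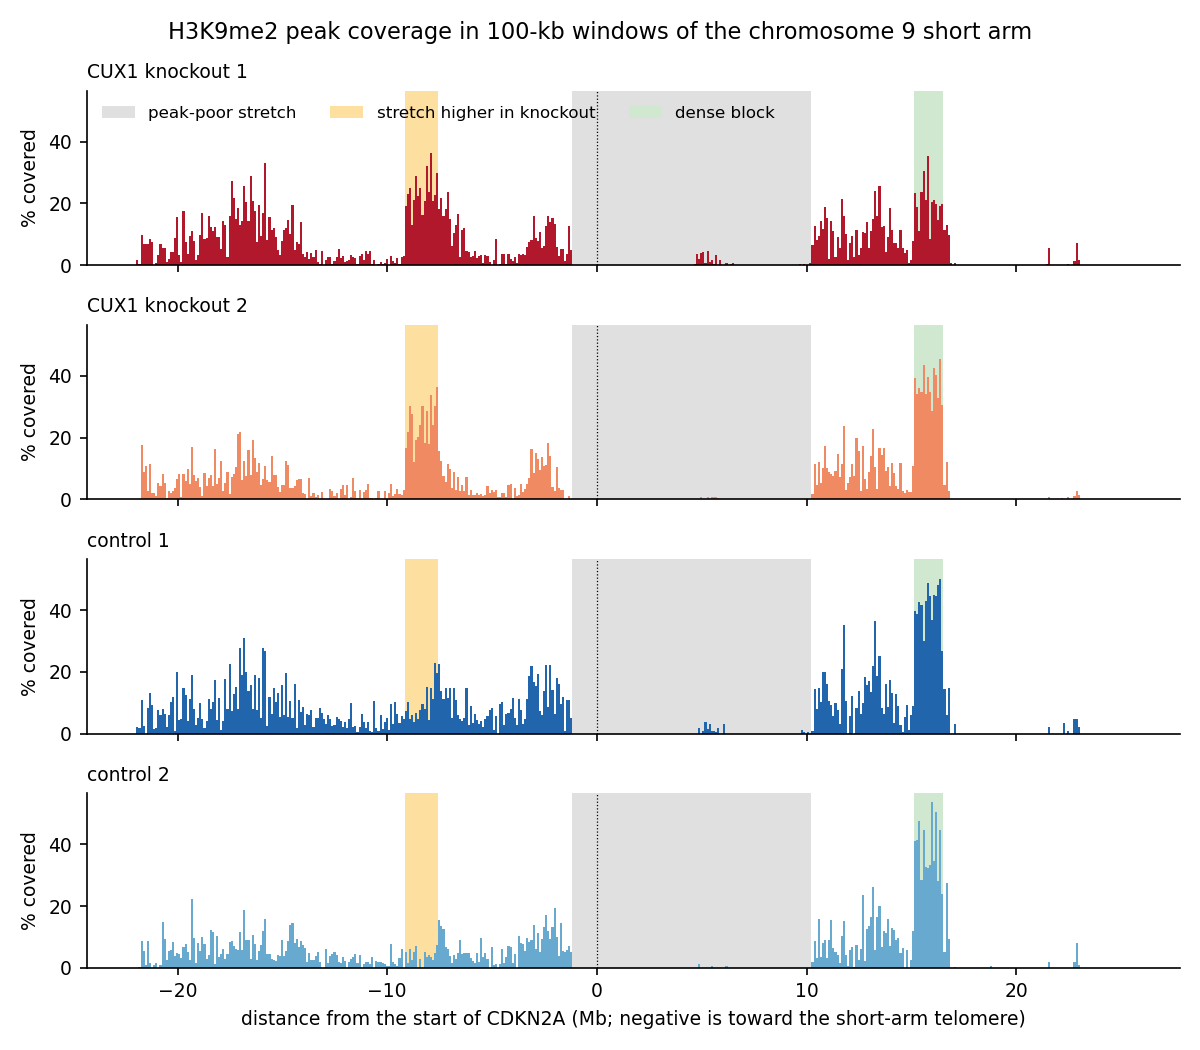
Percent of each 100-kb window under listed H3K9me2 peaks along the chromosome 9 short arm in 1 panel per library, knockouts above controls, against distance in Mb from the start of CDKN2A (dotted line). The grey peak-poor stretch is nearly empty in all 4 panels, the yellow stretch is filled more in both knockout panels, and the green dense block is filled in all 4.

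Relative to the other parts of the genome, the arm was below the mean in all libraries. Log2 of its percent covered, centred on the mean over 41 chromosome parts (the sides of each chromosome's longest stretch without peaks) of the same library, was -1.18 and -1.65 in the knockouts and -1.67 and -2.08 in the controls. The groups did not overlap, but knockout 2 and control 1 lay close together. The difference was 0.45 on the log2 scale (SE 0.23), and limma gave an adjusted p of 0.65 over the 41 parts, so it did not pass. The value includes the stretch at 13 to 15 Mb, which was chosen on the same contrast.

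Around CDKN2A, coverage was near 0 in all 4 libraries, and its edges lay close together. The members and this stretch were chosen from these values, so the edges are a description. In each library the stretch was the run of 100-kb windows around CDKN2A with the highest sum, each window scoring 50% of the arm's mean coverage minus its own. It ran from 20800001 to 32200000 in knockout 1, from 20400001 to 32300000 in knockout 2, and from 20800001 to 32300000 in both controls. The part common to all 4, from 20800001 to 32200000, spanned 11.4 Mb. Within it, peaks covered 0.265% and 0.0354% in the knockouts, against 0.178% and 0.0189% in the controls. The ranges of the groups overlapped. The 500 kb just before it had 5.49% and 0.856% covered in the knockouts and 8.01% and 5.72% in the controls. The 500 kb just after it had 10.1% and 6.97% covered in the knockouts and 9.69% and 6.59% in the controls. Knockout 2 was the one library whose coverage thinned out ahead of the common edge.

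Single peaks placed the edges more finely. The last listed peak before CDKN2A ended at 20730496 in knockout 1 and at 20684295 in knockout 2, against 20718476 in control 1 and 20744478 in control 2. These 4 ends lay within 60.2 kb of each other, between 1.22 and 1.28 Mb from the gene. The first listed peak after CDKN2A started at 26645386 in knockout 1 and at 26957463 in knockout 2, against 26809216 in control 1 and 26826843 in control 2. These starts were spread over 312 kb, between 4.65 and 4.96 Mb from the gene, and the controls lay between the knockouts. The peaks at both edges were weak, with deposited folds of 1.76 to 2.11. The length without a peak was 5.91 and 6.27 Mb in the knockouts and 6.09 and 6.08 Mb in the controls.

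The stretch free of listed peaks in all 4 libraries ran from 20744479 to 26645385, or 5.90 Mb. It ranked 4 among the 24 such stretches of at least 2 Mb on chromosomes 1 to 22 and X, after those of 24.1 Mb on chromosome 1, 21.4 Mb on chromosome 9 and 11.3 Mb on chromosome 16. Those 3 lie at centromeres, where the build has long gaps, and the stretch at CDKN2A does not. The authors' peak names carry serial numbers that rise with position, read here as numbering all called peaks, listed or not (an assumption, as no label states it). By these numbers, 3 and 3 unlisted peaks lay in the CDKN2A stretch in the knockouts, against 13 and 4 in the controls. That was 0.508 and 0.508 per Mb in the knockouts, against 2.20 and 0.678 per Mb in the controls. The weaker peaks that the lists left out were thus also few there, and control 1 had the most of them.

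A small cluster of peaks broke the peak-poor stretch. Between 26645386 and 28494610, the knockouts had 34 and 6 listed peaks, against 14 and 3 in the controls. Peaks covered 1.56% and 0.218% of this 1.85-Mb island in the knockouts, against 0.979% and 0.116% in the controls. By serial number it held 67 and 17 peaks in the knockouts and 92 and 10 in the controls, so the libraries numbered 1 were the fuller ones in both groups. In RefSeq order, the coding genes beyond CDKN2B in this direction include TEK, the angiopoietin receptor, C9orf72, known for its repeat expansion in motor neuron disease, and LINGO2, a neuronal membrane protein. Which of them the island covers was not determined. A further stretch from 28494611 to 31670484 (3.18 Mb) was again free of listed peaks in all 4, and by serial number held 3 and 2 peaks in the knockouts and 15 and 2 in the controls. The whole peak-poor stretch held 38 and 6 listed peaks in the knockouts, against 17 and 3 in the controls. The strongest of each library had a deposited fold of 2.42 in knockout 1 (28493961 to 28494610) and 1.86 in knockout 2 (26957463 to 26958265). It was 2.08 in control 1 (32034893 to 32035505) and 1.82 in control 2 (27460301 to 27460788).

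Toward the telomere, the knockouts had more coverage than the controls at 13 to 15 Mb. That stretch was chosen on this contrast, so its values are given with no test. Peaks covered 22.5% and 20.8% of it in the knockouts, against 11.3% and 5.63% in the controls, and the groups did not overlap. It held 245 and 186 listed peaks in the knockouts and 102 and 69 in the controls. Relative to the coverage of each whole list it had 1.61 and 1.08 times as much in the knockouts, against 0.495 and 0.252 times in the controls. It was thus above its list's average in both knockouts and below it in both controls.

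In the difference between the group means, the stretch had sharp edges on both sides. The difference was 0.598 percentage points in the last 100-kb window before it and 11.8 in its first, and 19.7 in its last window and -2.03 in the next. Scoring each 100-kb window by the knockout minus control difference less 5 percentage points placed it from 12800001 to 14400000, or 1.6 Mb. The start was 12800001 in each of the 4 knockout-control pairs taken singly, and the end was 14400000 in 3 of them and 15400000 for knockout 1 against control 2. In 20-kb windows the edges were 12840001 and 14420000. The window starting at 12700001 was 2.95% and 3.11% covered in the knockouts and 4.87% and 0% in the controls. The next, starting at 12800001, was 19.1% and 16.8% covered in the knockouts and 7.22% and 5.04% in the controls. The step was thus present in both knockouts and was small in both controls. Over the 1 Mb before the stretch, peaks covered 1.58% and 2.23% in the knockouts, against 5.33% and 2.27% in the controls. Over the 1 Mb after it they covered 15.8% and 8.53% in the knockouts, against 12.5% and 7.12% in the controls.

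**Figure D2:**
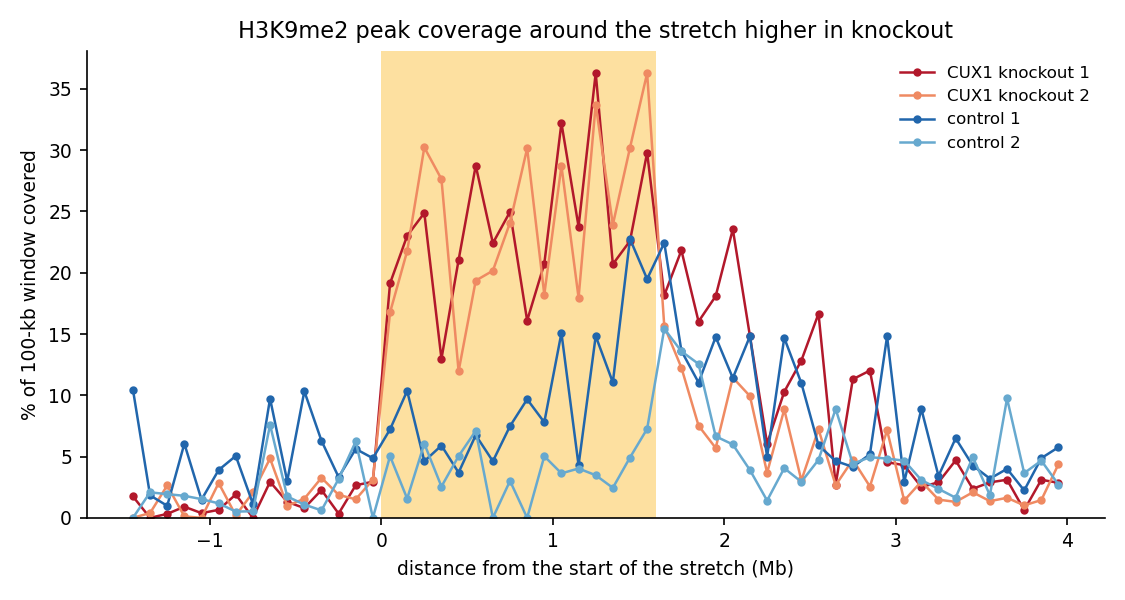
Percent of each 100-kb window under listed peaks against distance in Mb from the start of the stretch (shaded) with more coverage in the knockouts, 1 line per library. Both knockout lines step up at 0 Mb, from near 3% to 19.1% and 16.8%, and all 4 lines meet near the far edge, where the controls climb.

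Within the 1.6 Mb, 23.7% and 24.4% of the bases were covered in the knockouts, against 9.73% and 3.82% in the controls. Both knockouts were above both controls in 15 of the 16 windows. The exception started at 14200001, with 22.6% and 30.2% in the knockouts and 22.8% and 4.92% in the controls. Of the windows of 100 kb on the arm, the window starting at 14000001 was among the fullest in the knockouts, with 36.3% and 33.7%, against 14.8% and 3.48% in the controls. The controls were not alike. Control 1 climbed toward the far edge, to 19.5% in the window starting at 14300001, where control 2 had 7.26%. Just past the edge, at 14400001, the values were 18.2% and 15.6% in the knockouts and 22.4% and 15.4% in the controls, and the groups overlapped. In RefSeq order, the coding genes of this part of the arm run from TYRP1, a melanin enzyme, through MPDZ, a scaffold protein of cell junctions, and NFIB, a transcription factor, to FREM1 and PSIP1. They were not placed on hg19, so which of them lie under the stretch was not determined.

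The difference was smaller in counts of called peaks than in bases. By serial number, the 13 to 15 Mb stretch held 197 and 147 peaks per Mb in the knockouts, against 148 and 85.5 in the controls, so knockout 2 and control 1 were alike. More of the called peaks there were kept in the knockout lists, 245 of 394 and 186 of 294, against 102 of 296 and 69 of 171 in the controls. The same order held over the whole arm. There the lists kept 1906 of 3266 and 1363 of 2387 in the knockouts, against 1304 of 3910 and 1123 of 2562 in the controls. Over the whole lists the shares kept overlapped between the groups. By the highest serial number, 250000 were kept of 448404 and 381380 in the knockouts, against 430436 and 386156 in the controls. Held to a common limit on −log10 p of 1.49, the stretch was 22.5% and 12.4% covered in the knockouts, against 2.35% and 1.22% in the controls. With lists trimmed to an equal covered length of 423 Mb, it was 22.5% and 13.9% covered in the knockouts, against 4.05% and 2.44% in the controls. The groups stayed apart under both. Both cuts were set by the list of knockout 1, which they left whole. The same cuts also set the groups apart outside this stretch and the peak-poor one. There the common limit gave 6.29% and 3.21% in the knockouts, against 2.51% and 2.46% in the controls. Uncut, the values were 6.29% and 5.82%, against 8.08% and 5.94%. Staying apart was thus not particular to the stretch. The position of single peaks within the stretch was shared little between the knockouts. Of the bases covered in either knockout there, a fraction of 0.154 (the Jaccard index) was covered in both, against 0.121 if the peaks of the 2 lists were placed independently. Between the controls the index was lower, at 0.0845, but further above the 0.0391 of independent placement. The sequence under both knockouts and neither control was 96.6 kb, and that under both controls and neither knockout was 14 kb. Over the whole arm the 2 lengths were 268 kb and 259 kb. The stretch was chosen for more coverage in the knockouts, so an imbalance this way round follows from the choice.

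Outside the peak-poor stretch and 13 to 15 Mb, no difference between the groups passed a main test with all 4 libraries. With the replicate number as a block, 1 window of 1 Mb outside 13 to 15 Mb passed. The genome-wide share passing with the block is not given here, so that window is not read as particular to the arm. Peaks covered 6.29% and 5.82% of this remaining part of the arm in the knockouts, against 8.08% and 5.94% in the controls. The difference of -0.954 percentage points gave p = 0.667 in a two-sided exact permutation test. It was 0.114 without control 1, and under the common limit on −log10 p it was 2.27, so it had no fixed sign. Of the 474 windows of 100 kb on the arm, the 279 with a mean of at least 1% covered were tested with limma along with the rest of the genome, and 0 passed an adjusted p of 0.05. Across chromosomes 1 to 22 and X, 32 of 27555 windows passed, or 0.116%. At an unadjusted p under 0.05, 17 of 259 windows outside 13 to 15 Mb passed (6.56%), of which 10 were lower in the knockouts, against 14.96% of all tested windows. The number passing the adjusted threshold on the arm changed with the library left out. Such a fit leaves 1 library in a group, and its genome-wide share is not given here, so those counts are not read.

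Counted by order alone, both knockouts were above both controls in 31 of these 259 windows (12.0%), against 4.98% of all tested windows. They were below both controls in 75 (29.0%), against 43.3% of all tested windows. The 259 include the windows starting at 12800001 and 12900001, which belong to the stretch higher in the knockouts. Both count among the 31 above and among the 17 at an unadjusted p under 0.05, so these counts are partly chosen on the contrast. Within 13 to 15 Mb, where the contrast chose the members, the counts were 14 above and 0 below of 20. By segment, 5 windows were above and 26 below of 57 between 15 Mb and the peak-poor stretch. Between the telomere and 13 Mb, 14 were above and 32 below of 125. Between the peak-poor stretch and a dense block described next, 10 were above and 11 below of 49. Neighbouring windows share broad domains and are not independent.

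The windows with the smallest p did not pass. The 8 smallest on the arm were 7 windows of the 13 to 15 Mb stretch and 1 near the telomere, starting at 400001. That window was 6.69% and 10.8% covered in the knockouts, against 0% and 0.83% in the controls, with an adjusted p of 0.148 by limma. Outside 13 to 15 Mb, the window starting at 37300001 was 11.0% and 36.0% covered in the knockouts and 42.6% and 47.7% in the controls (limma adjusted p = 0.224). The window starting at 18200001 was 3.503% and 1.465% covered in the knockouts and 11.0% and 10.4% in the controls (limma adjusted p = 0.241). In each of these 3 windows the groups did not overlap. The others of the 8 smallest outside 13 to 15 Mb were the windows starting at 12800001 and 12900001, which belong to the stretch higher in the knockouts, and those at 17900001, 20500001 and 37900001, which were lower in both knockouts.

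In windows of 1 Mb, 29 were tested on the arm and 1 passed, the one from 13000001, which the contrast had chosen. Genome-wide 4.24% of 2830 passed. Outside 13 to 15 Mb, 0 of 27 passed by limma, and 1 of 27 (3.70%) reached an unadjusted p under 0.05, against 17.2% of all tested windows. Both knockouts were below both controls in 12 of these 27 (44.4%), against 63.7% of all tested windows, and above them in 0, against 1.48% of all tested windows. As with windows of 100 kb, the number passing on the arm changed with the library left out. The smallest p outside 13 to 15 Mb was that of the window from 20000001, just at the edge of the peak-poor stretch. It was 4.15% and 2.13% covered in the knockouts, against 8.36% and 5.68% in the controls (limma adjusted p = 0.141). The sparse parts nearer to the telomere ran the same way. Between 16 and 18 Mb, peaks covered 2.41% and 2.04% in the knockouts, against 5.62% and 3.43% in the controls. Between 8 Mb and the start of the higher stretch, they covered 2.09% and 1.89% in the knockouts, against 4.33% and 2.52% in the controls. Divided by the coverage of each whole list, the groups overlapped in both segments. Between 3 and 8 Mb they also overlapped unscaled, with 13.3% and 8.09% covered in the knockouts and 11.8% and 7.24% in the controls.

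**Figure D3:**
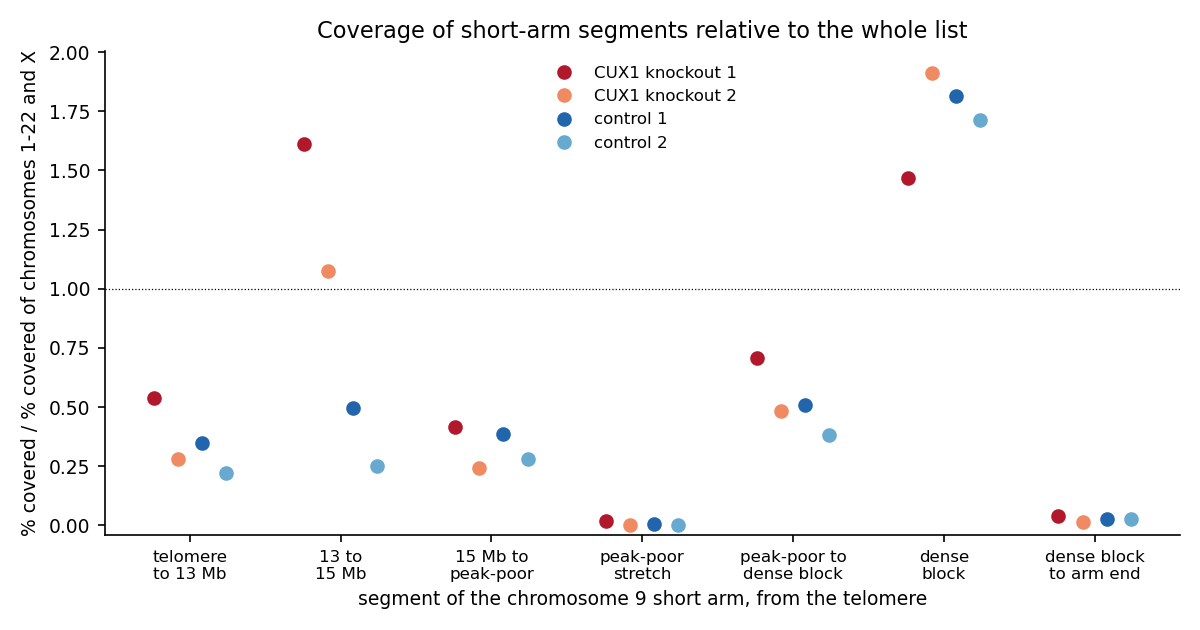
Percent of each of 7 segments of the short arm under peaks, divided by the percent of chromosomes 1 to 22 and X under peaks of the same list (dotted line at 1), 1 point per library with knockouts to the left of controls. At 13 to 15 Mb both knockouts, at 1.61 and 1.08, are above 1 and both controls, at 0.495 and 0.252, are below it; only the dense block is above 1 in all 4 libraries.

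Past the peak-poor stretch, coverage returned in all libraries and ended in a dense block. From 32.2 to 37.1 Mb, peaks covered 9.90% and 9.30% in the knockouts, against 11.6% and 8.54% in the controls, and the groups overlapped. The dense block from 37100001 to 38500000 was 20.5% and 36.8% covered in the knockouts, against 41.4% and 38.3% in the controls. It was found by scoring windows against 3 times the arm's mean, and its start was 37100001 in all 4 libraries. Over the 1 Mb before it, peaks covered 5.57% and 5.07% in the knockouts, against 5.89% and 6.23% in the controls, so the step up was shared by both groups. In 20-kb windows it started at 37080001 in both knockouts and at 37060001 in both controls. Relative to its list, the block had 1.47 and 1.91 times the average coverage in the knockouts and 1.81 and 1.71 times in the controls. Knockout 1 stood apart, with the lowest coverage there, although by serial number it had the most called peaks, 207 per Mb, against 179 in knockout 2 and 174 and 172 in the controls.

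From the block to the end of the arm, at 38.5 to 47.4 Mb, peaks covered 0.583% and 0.301% in the knockouts, against 0.627% and 0.623% in the controls. The stretches from 39055615 to 40791739, from 40792187 to 43493550 and from 43592514 to 44161052 had no listed peak in any library. This side of the centromere is known for segmental duplications and gaps of the build, which were not examined here. The peak-poor stretch at CDKN2A and this one were the 2 segments of the 7 under 1% covered in every library.

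**Figure D4:**
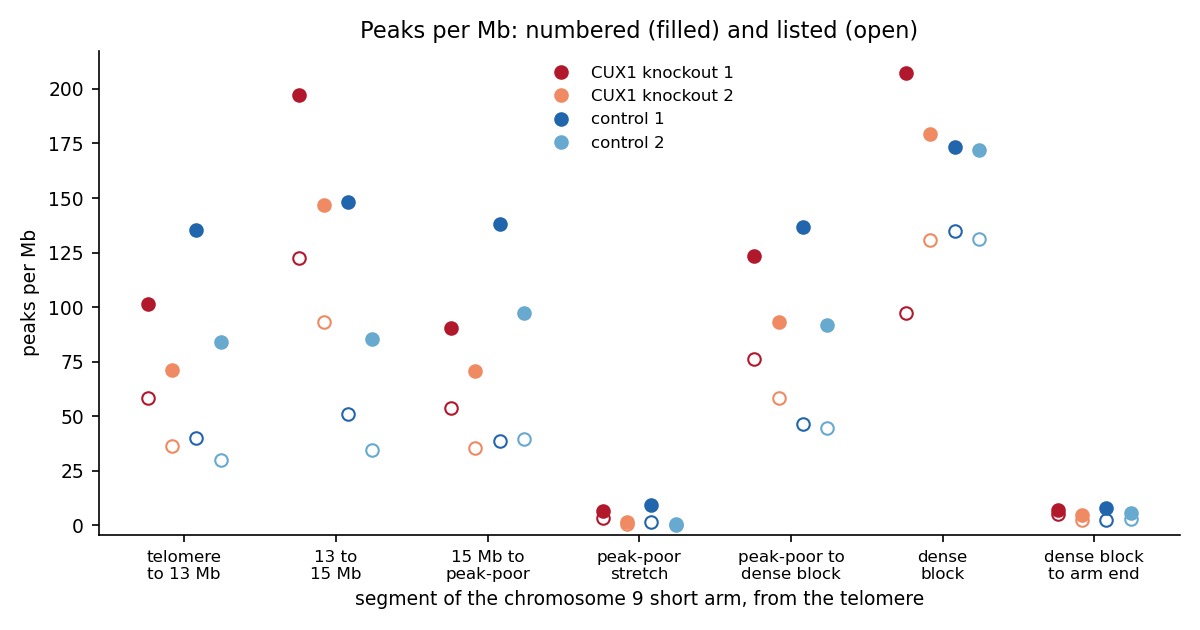
Peaks per Mb in 7 segments of the short arm by serial number (filled) and listed (open), 1 point per library with knockouts to the left of controls. The peak-poor stretch and the end of the arm have few peaks by either count in all 4 libraries, and at 13 to 15 Mb the filled points of knockout 2 (147) and control 1 (148) coincide while the open points of the groups do not overlap.

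The peaks of the arm were narrower than those of the whole list in each library, and about as strong. Their median deposited fold was 1.96 and 1.77 in the knockouts and 1.74 and 1.71 in the controls, against whole-list medians of 1.95 and 1.77 in the knockouts and 1.77 and 1.72 in the controls. Their median width was 1044 and 1318 bp in the knockouts, against 1852 and 1500 bp in the controls, and the groups did not overlap. The difference of -495 bp gave p = 0.333 in a two-sided exact permutation test, the smallest that this design allows. The whole lists had the same order, with 1324 and 1900 bp in the knockouts and 2335 and 2275 bp in the controls. The smallest width was 263 and 339 bp on the arm in the knockouts, against 363 and 370 bp in the controls. The groups did not overlap, but knockout 2 lay nearer to the controls than to knockout 1. The part of the caller's smallest width in the difference was not tested. Peaks of at least 5 kb numbered 25 and 48 in the knockouts, against 106 and 45 in the controls. In the whole lists they numbered 6658 and 19898 in the knockouts and 31443 and 29654 in the controls. At q of 0.05 the knockouts had 0 and 0 peaks on the arm, against 0 and 1 in the controls, and few passed anywhere, 6 and 458 in the whole knockout lists and 14 and 310 in the whole control lists.

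The widest peak of the arm lay in the stretch at 13 to 15 Mb in both knockouts and in the dense block in both controls. It was 10172 bp in knockout 1 (14317314 to 14327485) and 12416 bp in knockout 2 (14212264 to 14224679). It was 12304 bp in control 1 (38382792 to 38395095) and 10998 bp in control 2 (37497805 to 37508802). The strongest peaks by −log10 p were other peaks. They lay at 13 to 15 Mb in control 1, in the dense block in knockout 2, and outside both in knockout 1 and control 2. They had a deposited fold of 3.12 in knockout 1 (32901104 to 32901526) and 2.52 in knockout 2 (37464806 to 37467108). The fold was 2.77 in control 1 (14431660 to 14434044) and 2.71 in control 2 (34328798 to 34332104).

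Covered bases were shared between libraries to a limited extent, and the values within groups lay inside the range of those between groups. The Jaccard index of covered bases on the arm was 0.102 between the knockouts and 0.112 between the controls. Between a knockout and a control it was 0.0832 to 0.123, and independent placement on the arm would give 0.0244 to 0.0304. That placement is even over the arm, so empty and dense stretches common to the libraries raise the index above it. The arm-wide gap therefore does not show that single peaks recur. At 13 to 15 Mb, a knockout and a control had 0.0471 to 0.101, against 0.0464 to 0.0814 for independent placement. Between 19.4% and 34.6% of a library's peaks overlapped a peak of another by at least 1 bp. In the dense block the index was 0.195 between the knockouts and 0.279 between the controls, against 0.152 and 0.249 for independent placement.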

How the data were processed

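H3K9me2 was mapped by CUT&RUN in 4 libraries, grouped by the guide in the labels. The submitters' processing notes name hg19 as the build and, as tools, deepTools 3.5.1, MACS2 2.1.0, SAMtools 1.16.1 and BWA 0.7.17. Their settings and any background library are not given in the sources used here. Depth per library, and with it the precision of each value, is unknown. The authors deposited 1 broad peak list per library, called per library. Each deposited peak carries a score, a fold (a ratio of enrichment), a −log10 p and a −log10 q, which served only to rank, filter or describe peaks. Serial numbers ran to 448404 and 381380 in the knockouts and to 430436 and 386156 in the controls.

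Percent covered is the share of bases under at least 1 listed peak. Group means were compared by two-sided exact permutation tests. Windows of 100 kb and 1 Mb with a mean of at least 1% were tested over chromosomes 1 to 22 and X with limma 3.58.1 in R 4.3.3 (eBayes with a mean trend; p-values adjusted by Benjamini-Hochberg, threshold 0.05), and chromosome parts of at least 5 Mb without a trend. Chromosome ends were taken as the last listed peak. The fits were tested on simulated data. The windows named are those that passed or, where none did, the 8 lowest in unadjusted p. The members, lists and stretches were chosen with earlier results of these data known. Same-numbered libraries deviated together with a correlation of 0.0519 over all 100-kb windows and 0.0973 on the arm, under 0.1, so the numbers were not taken as pairs. The correlation was measured in windows only. For the arm as a whole, the libraries numbered 1 were higher in both groups. Centred log2 coverage was -1.18 against -1.65 in the knockouts and -1.67 against -2.08 in the controls, and a shared shift at that scale was not tested. The alternatives were common limits on −log10 p and on −log10 q, lists trimmed to an equal covered length, quantile normalization, no filter on low coverage, other windows and scores for the edges, and leaving out each library.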

Additional observations from a re-analysis of the deposited data

How the results depend on the processing

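With 2 libraries a group and unknown depth, only large differences could be shown, and permutation tests could not pass a threshold. The difference in percent covered over the arm turned positive under the common limits on −log10 p (2.31) and −log10 q (1.63) and at equal covered length (1.66), and ran between -1.02 and 0.788 when 1 library was left out, positive without control 1 (0.788) and without knockout 2 (0.118). Outside the peak-poor stretch and 13 to 15 Mb it was 2.27, 1.49 and 1.40 under the same 3 settings and -2.02 to 0.114 with 1 library left out (0.114 without control 1). In the peak-poor stretch it ran between -0.0628 and 0.166 with 1 library left out, negative without knockout 1 (-0.0628) and without control 2 (-0.0277). Windows of 100 kb past the threshold numbered 0 to 8 with 1 library left out, and those of 1 Mb 0 to 4. Windows of 1 Mb numbered 0 with no filter on low coverage, 2 under the limit on −log10 p, 0 under that on −log10 q and 0 at equal covered length. With the replicate number as a block (replicate block), 2 windows of 100 kb, both at 13 to 15 Mb, and 3 of 1 Mb, 1 of them outside it, passed. The genome-wide share of windows passing with the block is not given here. The log2 difference of the arm against all chromosome parts, 0.45, then had an adjusted p of 0.000685 by limma. With the block 9 of the 41 parts passed, against 1 in the main fit, so passing was not particular to the arm. The same-numbered libraries are not known to be pairs. The stretch at 13 to 15 Mb started at 12840001 in 20-kb windows, an alternative chosen after seeing the data, and ended at 15400000 under the limit on −log10 p. The mean end of the peak-poor stretch was 32225000 when scored with 25% of the mean, against 32275000. Peaks shared at 50% of both averaged 7.09%, against 29.4% at 1 bp. The other alternatives, 46 for the main results and 76 for single windows, kept the direction and the side of the threshold or stayed within the spread; 3 single windows at 13 to 15 Mb passed only with the replicate block or without knockout 2. The cause was not tested. The test over gene bodies was not run, because no hg19 annotation was used.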
